A study of Sus scrofa with 48 samples.

Results

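Transcripts of the proteasome subunits and of the ubiquitin-conjugating enzymes were followed in fat and liver of pigs that were fasted or fed. The members were the genes whose single gene symbol starts with PSMA, PSMB, PSMC, PSMD, PSME, PSMF, PSMG or UBE2, each read by the probe set with the highest mean log2 signal. There were 64 such genes of 6765 genes with a single symbol, 40 of them proteasome genes and 24 of them conjugating enzymes. The proteasome genes comprised 7 alpha and 9 beta subunits of the 20S core, 5 ATPases and 12 other members of the 19S regulator set, and 7 activators, inhibitors or assembly chaperones. PSMB9, PSMC4, UBE2D1, UBE2G1, UBE2L6 and UBE2S were not analysed here.

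The 48 Affymetrix porcine arrays held 1 fat and 1 liver sample from each of 24 Yorkshire gilts, young sows that were 6 months old. All the gilts came from a line bred for feed efficiency through a low residual feed intake, so that every group shared this selection. The gilts were homozygous for N298 or for D298, the wild-type form, of MC4R, the brain melanocortin receptor that restrains appetite. In each genotype 6 gilts were fasted for 3 days and 6 were fed ad libitum over the same time. The fat samples carried the word fat alone, with no depot named. Changes are given as log2 of fasted over fed, averaged over both genotypes unless stated, with the SE from a limma fit across 23999 probe sets. A gene was called at a Benjamini-Hochberg adjusted p under 0.05 over all those probe sets.

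The proteasome is the barrel-shaped protease that breaks down most short-lived and damaged proteins of a cell. Ubiquitin is passed from an activating enzyme to a conjugating enzyme, which with a ligase attaches it to the protein to be destroyed. The 19S regulator binds the ubiquitin chain, removes it and threads the protein into the 20S core, where 3 of the beta subunits cut it. In skeletal muscle, transcripts of this system are known to rise during starvation, when muscle protein is broken down.

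The median member stood at percentile 91.9 of all probe sets by signal in fat and 90.4 in liver. UBE2C and UBE2QL1 lay below the middle in fat, UBE2T and UBE2D4 lay near it, and none was left out for low signal. The median array signal ran between 159 and 192 in fat and between 122 and 149 in liver. All 13 measured hepatocyte markers were lower in fat and 8 of 9 adipocyte markers were higher in fat, which goes with the labels of the tissues. Skeletal muscle markers, 11 genes in all, summed to at least 90236 on 5 fat arrays, against at most 60232 on the others. Of those 5 arrays 4 were from fasted gilts (D298 numbers 4, 5 and 6 and N298 number 6) and 1 was from a fed gilt (N298 number 3). Hepatocyte markers summed to at least 21554 on 4 fat arrays, from 1 fasted gilt (D298 number 5) and 3 fed gilts (D298 number 4 and N298 numbers 3 and 6), and to at most 10652 on the others. The counts that lead the account of fat are therefore given with and without these arrays.

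Fasting lowered the transcripts of much of the proteasome in fat. Of the 64 members 32 fell (50%) and 1 rose (1.56%). Over all genes the shares were 18.9% lower and 15.3% higher. The median change of the members was -0.21 and that of all genes 0.01. The falls were moderate, with a median fold of 0.755, and ran between -0.19 for PSMA4 and -1.42 for UBE2C. All 32 were negative in N298 and in D298 gilts taken apart. They were chosen by the average of both genotypes, so these signs are not separate evidence. With 12 arrays in each genotype, fewer members were called lower in either genotype alone. At an unadjusted p under 0.05 there were 41 members (64.1%) and 44.0% of all genes. Without the 5 fat arrays rich in muscle markers 18 of the 64 members were called lower, all of them among the 32, against 11.9% of all genes. The 32 all stayed negative, but the arrays kept were among those they had been chosen on. Without the 4 fat arrays rich in hepatocyte markers 22 of the 64 members were called lower, against 14.6% of all genes. In whole tissue, fewer cells of a type and less RNA per cell cannot be told apart.

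**Figure D1:**
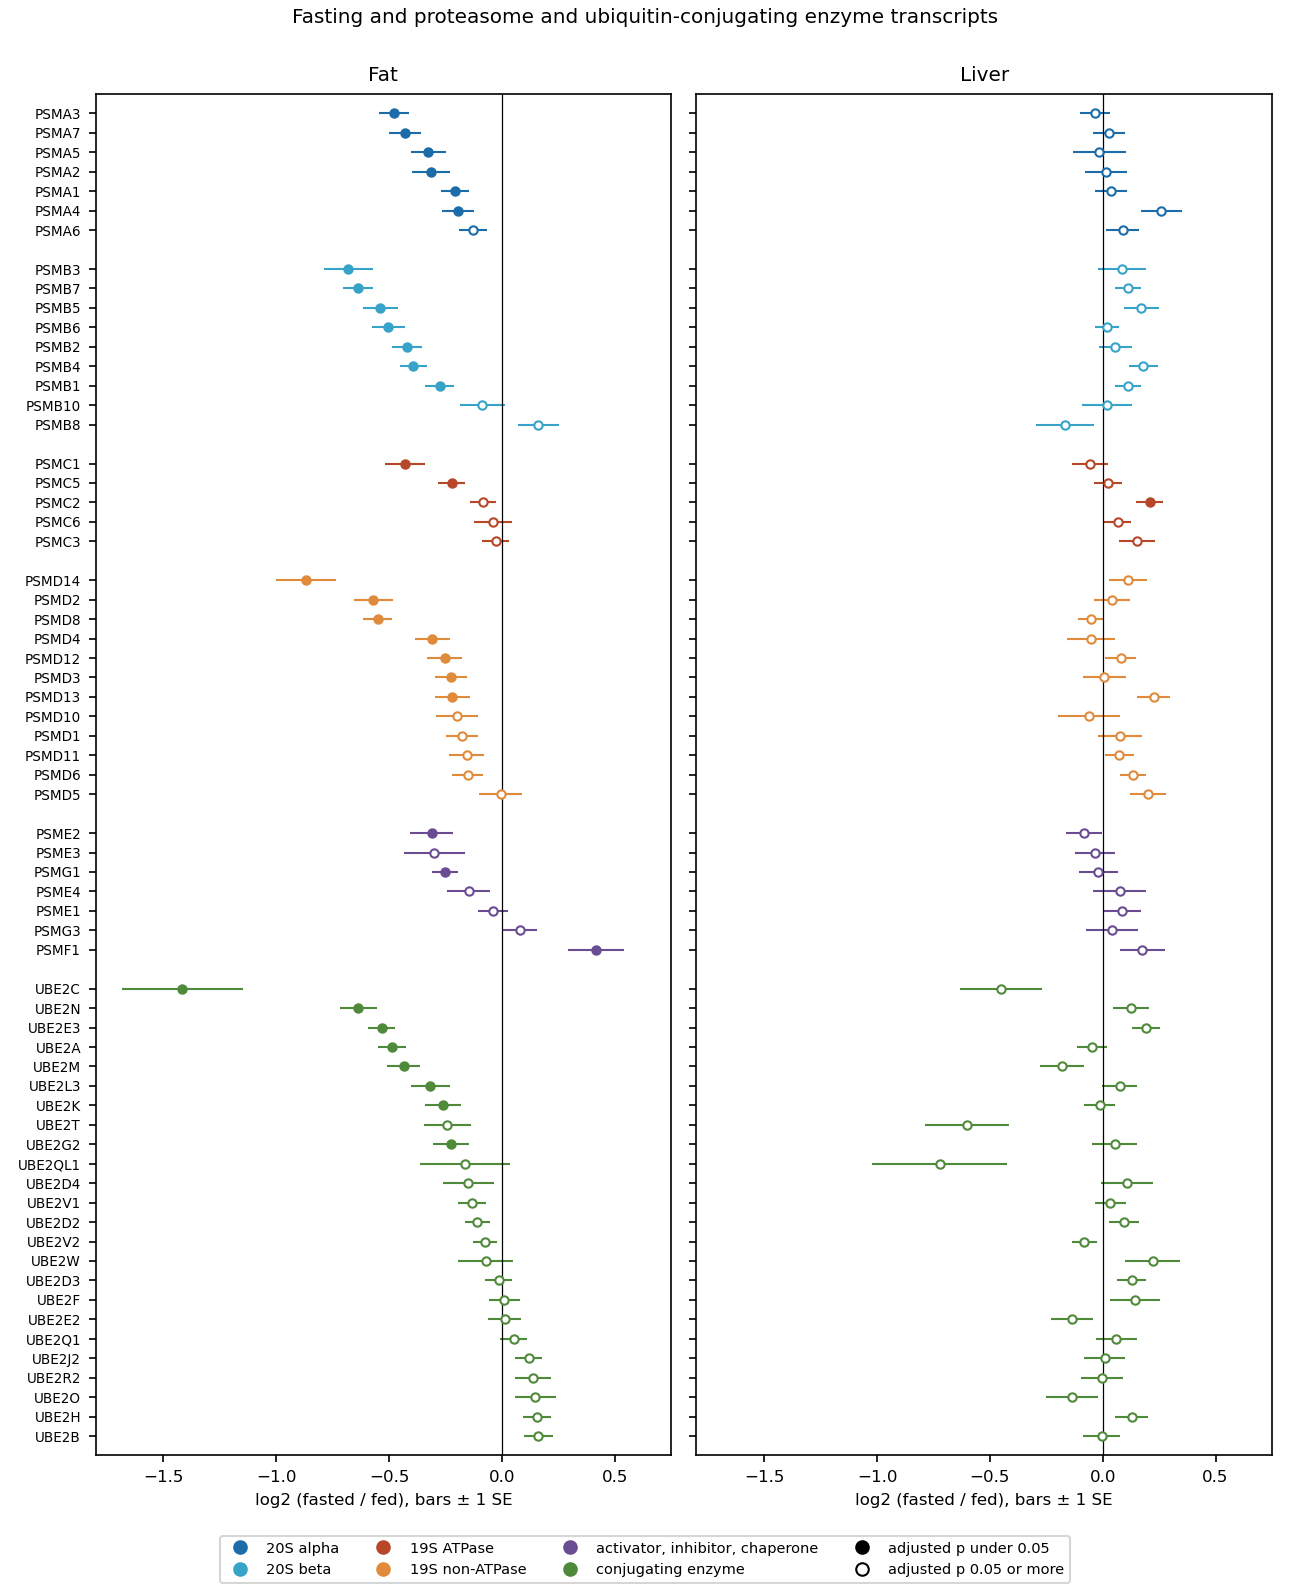
Change of each of the 64 members in fat (left) and liver (right), as log2 of fasted over fed with bars of 1 SE (12 fasted and 12 fed gilts in each tissue); filled points have an adjusted p under 0.05 and colours give the member groups. In fat 32 members lie left of zero with filled points and PSMF1 alone is filled on the right, while in liver PSMC2 is the single filled point.

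The 7 alpha subunits form the outer rings of the core and gate its entrance, and 6 of them fell in fat. PSMA3 ran from 5750 over a median of 6609 to 7749 in fasted gilts, and from 6660 over 9375 to 11650 in fed gilts, with 7 of the 12 fasted arrays below every fed array. Its change was -0.48 ± 0.07 (SE, adjusted p = 2.0e-05, limma). PSMA7 had signals of 3171 to 4299 (median 3786) in fasted gilts and of 3683 to 7102 (median 5097) in fed gilts, and fell by 0.43 ± 0.07 (SE, adjusted p = 0.000133, limma). The fed array of 7102 belongs to N298 number 3. The other called alpha subunits changed less and their groups overlapped more. PSMA5 had 790 to 1080 (median 954) in fasted and 886 to 1691 (median 1183) in fed gilts, a change of -0.33. PSMA2 had 4729 to 7214 (median 5858) in fasted and 5752 to 10330 (median 6942) in fed gilts, a change of -0.31. PSMA1 (-0.21) and PSMA4 (-0.19) were the smallest calls, with only 1 and 2 fasted arrays below all fed ones. PSMA6 did not pass the test (-0.13, adjusted p = 0.135, limma). Without the muscle-rich arrays 2 of the 7 alpha subunits were called, PSMA3 (-0.46) and PSMA7 (-0.36). PSMA2 (-0.33) and PSMA5 (-0.29) had changes about as large as over all arrays and larger errors. PSMA1 (-0.16) and PSMA4 (-0.13) had smaller changes than over all arrays, also with larger errors.

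The beta subunits form the inner rings and hold the cutting sites. All 7 constitutive ones, PSMB1 to PSMB7, fell in fat. PSMB7, which cuts after basic residues, had signals of 2595 to 3210 (median 2931) in fasted gilts and of 3369 to 5713 (median 4425) in fed gilts. The groups did not overlap: every fasted array lay below every fed array. The change of PSMB7 was -0.64 ± 0.07 (SE, adjusted p = 6.7e-07, limma), the smallest p of any member. The other cutting subunits fell by similar amounts. PSMB5, which cuts after hydrophobic residues, had 1936 to 2844 (median 2354) in fasted and 2581 to 4112 (median 3574) in fed gilts, a change of -0.54 ± 0.08 (SE). PSMB6, which cuts after acidic residues, had 1774 to 2206 (median 1900) in fasted and 1863 to 3871 (median 2691) in fed gilts, a change of -0.50 ± 0.07 (SE). For PSMB5 8 of the 12 fasted arrays lay below all fed arrays, and for PSMB6 3 did.

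Among the beta subunits without a cutting site, PSMB3 fell most, by 0.68 ± 0.11 on the log2 scale (SE, adjusted p = 9.9e-05, limma). Its signals were 250 to 421 (median 305) in fasted gilts and 342 to 715 (median 514) in fed gilts. PSMB4 had 3944 to 5560 (median 4672) in fasted and 4446 to 8056 (median 5966) in fed gilts, with 2 fasted arrays below all fed arrays, and changed by -0.39 ± 0.06 (SE, adjusted p = 4.8e-05, limma). PSMB2 had 2455 to 3270 (median 2817) in fasted and 2686 to 4669 (median 3845) in fed gilts, a change of -0.42. In PSMB1 the fed group reached below the fasted one, with 4059 to 5313 (median 4631) in fasted and 3927 to 7564 (median 5706) in fed gilts and a change of -0.27. Without the muscle-rich arrays 6 of the 9 beta genes were called, all but PSMB1 of the 7 above.

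The immunoproteasome replaces the cutting subunits with versions induced by interferon, PSMB8 in place of PSMB5 and PSMB10 in place of PSMB7. PSMB8 had signals of 898 to 1597 (median 1134) in fasted fat and of 722 to 1437 (median 1051) in fed fat, ranges that overlap. Its change was 0.16 ± 0.09 (SE, adjusted p = 0.219, limma). PSMB10 had 334 to 506 (median 413) in fasted fat and 357 to 857 (median 417) in fed fat, a change of -0.09 ± 0.10 (SE, adjusted p = 0.598, limma). The fed array of 857 is again N298 number 3. Thus neither immunoproteasome subunit passed the test where the constitutive partners fell; the difference between partners was not tested. In the companion list of interferon and antigen presentation genes, 4 of 22 rose in fasted fat (IFIT1, IFIT2, GBP1 and GBP2) and 0 fell. Over all genes 15.3% were higher, a share near that of the list, and 18.9% lower.

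The 19S ATPases form the ring that unfolds the protein and opens the core. Of 5 measured, 2 fell in fat. PSMC1 had 1695 to 3047 (median 2317) in fasted and 2409 to 3499 (median 3146) in fed gilts, with 7 fasted arrays below all fed ones, and changed by -0.43 ± 0.09 (SE, adjusted p = 0.00099, limma). PSMC5 had 2862 to 3637 (median 3291) in fasted and 3170 to 4189 (median 3951) in fed gilts and changed by -0.22 ± 0.06 (SE, adjusted p = 0.0081, limma). PSMC2, PSMC3 and PSMC6 lay between -0.08 and -0.03 and did not pass. For PSMC2 the result depends on the probe set. Its brightest had 3481 to 4276 (median 3997) in fasted and 3234 to 4963 (median 4182) in fed fat and a change of -0.08 ± 0.06 (SE, adjusted p = 0.348, limma), whereas its other probe sets fell by 0.34 and 0.33 on the log2 scale, both called. Without the muscle-rich arrays 1 of the 5 ATPases was called.

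Of the 12 other genes of the 19S set 7 fell in fat, and all 12 changes were negative. PSMD14, the enzyme of the lid that cuts ubiquitin off the protein being degraded, fell most among the proteasome genes. It had 912 to 1724 (median 1375) in fasted and 1180 to 3710 (median 2541) in fed gilts, a change of -0.87 ± 0.13 (SE, adjusted p = 5.0e-05, limma). The fed array of D298 number 1, at 1180, lay inside the fasted range, and the next lowest fed array was above the highest fasted one. The mean log2 signal of all proteasome genes on that array, 10.75, lay within the 10.67 to 10.86 of fasted D298 fat. No fit left out that array alone. PSMD8, a lid subunit, had 1691 to 2225 (median 1970) in fasted and 2343 to 3551 (median 2779) in fed gilts. These ranges did not overlap, and the change was -0.55 ± 0.06 (SE, adjusted p = 1.5e-06, limma). PSMD2, a scaffold of the base that docks ubiquitin shuttle proteins, had 1750 to 2787 (median 2245) in fasted and 2353 to 4021 (median 3481) in fed gilts and changed by -0.57 ± 0.09 (SE, adjusted p = 4.5e-05, limma).

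The ubiquitin receptor PSMD4 had 1367 to 2543 (median 1612) in fasted and 1641 to 2533 (median 2008) in fed gilts, a change of -0.31. The lid subunit PSMD12 had 956 to 1590 (median 1198) in fasted and 1095 to 1746 (median 1386) in fed gilts, a change of -0.25. In both the highest arrays of the groups were close, while 6 and 3 fasted arrays lay below all fed ones. PSMD3 (-0.23) and PSMD13 (-0.22), also of the lid, fell by the smallest called amounts. PSMD1, PSMD6 and PSMD11, further subunits of base and lid, had -0.18, -0.15 and -0.16 and did not pass, although the second probe set of PSMD1 was called at -0.23. The assembly chaperones of the base did not pass either, with -0.20 for PSMD10 and -0.0048 for PSMD5. Without the muscle-rich arrays 4 of the 12 were called, among them PSMD8 at -0.49, PSMD14 at -0.77 and PSMD2.

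Among the activators, inhibitors and assembly chaperones the directions were mixed. PSMF1, an inhibitor of the core in the test tube, was the single member that rose in fat. It had 363 to 648 (median 424) in fasted and 154 to 392 (median 347) in fed gilts, with 8 fasted arrays above all fed ones. Its change was 0.42 ± 0.12 (SE, adjusted p = 0.0164, limma), and its second probe set gave 0.41. Both the highest fasted array, D298 number 2, and the lowest fed array, D298 number 3, stood apart from their groups, and without the arrays of number 2 the rise was not called. PSMG1, a chaperone that helps to build the alpha ring, had 609 to 827 (median 683) in fasted and 739 to 917 (median 812) in fed gilts and fell by 0.25 ± 0.06 (SE, adjusted p = 0.0028, limma). PSMG3, a further assembly chaperone, did not pass (0.08).

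The PA28 activator caps the core in place of the 19S regulator and is made of PSME1 and PSME2, both inducible by interferon. PSME2 had 1170 to 1875 (median 1343) in fasted and 1183 to 3267 (median 1702) in fed fat and fell by 0.31 ± 0.10 (SE, adjusted p = 0.0200, limma). The call was lost without the arrays of number 3 or of number 4, and without the muscle-rich or the hepatocyte-rich arrays. PSME1 had 1667 to 2339 (median 2168) in fasted and 1774 to 2803 (median 2043) in fed fat and did not pass (-0.04, adjusted p = 0.735, limma). PSME3, the nuclear relative, had -0.30 and PSME4, a large activator, -0.15, neither of them called.

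The conjugating enzymes were less uniform. Of 24 measured 8 fell in fat, 0 rose, and 8 of the changes were positive. UBE2E3 had 3068 to 4756 (median 4361) in fasted and 5145 to 6918 (median 6057) in fed gilts, with no overlap, and fell by 0.53 ± 0.06 (SE, adjusted p = 1.8e-06, limma). All 3 of its probe sets were called lower. UBE2N, which builds signalling chains that do not lead to the proteasome, had 1229 to 1915 (median 1499) in fasted and 1593 to 3095 (median 2375) in fed gilts and fell by 0.64 ± 0.08 (SE, adjusted p = 6.9e-06, limma). Its partners in that work, UBE2V1 (-0.13) and UBE2V2 (-0.07), did not pass, though of the other probe sets of UBE2V1 one was called at -0.26 and one had 0.17.

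UBE2A and UBE2B are close relatives that act in DNA repair and histone marking. UBE2A had 1178 to 1681 (median 1446) in fasted and 1664 to 2193 (median 1999) in fed gilts, with 11 of 12 fasted arrays below all fed ones, and fell by 0.49 ± 0.06 (SE, adjusted p = 8.1e-06, limma). UBE2B had 3312 to 5554 (median 4715) in fasted and 3211 to 4543 (median 4004) in fed gilts, with 6 fasted arrays above all fed ones, and did not pass at 0.16 ± 0.06 (SE, adjusted p = 0.0712, limma). UBE2B is known to rise in wasting muscle of rodents. UBE2H, which works with the CTLH ligase, had 1939 to 2689 (median 2370) in fasted and 1731 to 2439 (median 2065) in fed fat, a change of 0.16 that did not pass (adjusted p = 0.0733, limma).

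UBE2M and UBE2F attach NEDD8, a relative of ubiquitin that switches on cullin ligases. UBE2M had 542 to 785 (median 648) in fasted and 715 to 1189 (median 842) in fed gilts, with 10 fasted arrays below all fed ones, and fell by 0.44 ± 0.07 (SE, adjusted p = 0.000133, limma), while UBE2F stood at 0.01. UBE2L3 had 245 to 388 (median 297) in fasted and 303 to 409 (median 370) in fed gilts and fell by 0.32. Its second probe set, which was the brighter of its probe sets in fat (mean log2 8.723 against 8.365), had -0.18 and was not called. UBE2K, which builds chains for the proteasome, had 644 to 998 (median 883) in fasted and 779 to 1250 (median 1084) in fed gilts, a change of -0.26. UBE2G2, an enzyme of endoplasmic reticulum clearance, had 330.4 to 515 (median 443) in fasted and 395 to 589 (median 506) in fed gilts, a change of -0.23. Without the muscle-rich arrays UBE2K (-0.30), UBE2L3 (-0.30) and UBE2G2 (-0.14) were not called, the first 2 with changes about as large as over all arrays and larger errors. The UBE2D enzymes, which work with many ligases, did not pass: UBE2D2 had 3797 to 5149 (median 4553) in fasted and 4550 to 5452 (median 4923) in fed fat, a change of -0.11. UBE2D3 had 972 to 1234 (median 1081) in fasted and 956 to 1318 (median 1082) in fed fat, a change of -0.01.

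UBE2C serves the ligase that drives cells out of mitosis, and it had the largest fall of any member. Its signals were dim, with 16.2 to 134 (median 73.0) in fasted and 89.4 to 226 (median 178) in fed fat, and 9 fasted arrays lay below all fed ones. The change was -1.42 ± 0.27 (SE, adjusted p = 0.00046, limma), and its second probe set, at -0.32, was not called. UBE2T, an enzyme of DNA crosslink repair, had 148 to 257 (median 181) in fasted and 174 to 295 (median 215) in fed fat and did not pass (-0.24, adjusted p = 0.0991, limma). In the companion list of cell division genes 12 of 17 fell in fasted fat and their summed signal was 1573 to 2338 in fasted and 2193 to 4207 in fed gilts. The part of cell division in the fall of UBE2C was not tested. The remaining conjugating enzymes of fat, UBE2D4, UBE2E2, UBE2J2, UBE2O, UBE2Q1, UBE2QL1, UBE2R2 and UBE2W, ran between -0.16 and 0.15 and were not called, although the second probe set of UBE2W was, at -0.70.

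**Figure D2:**
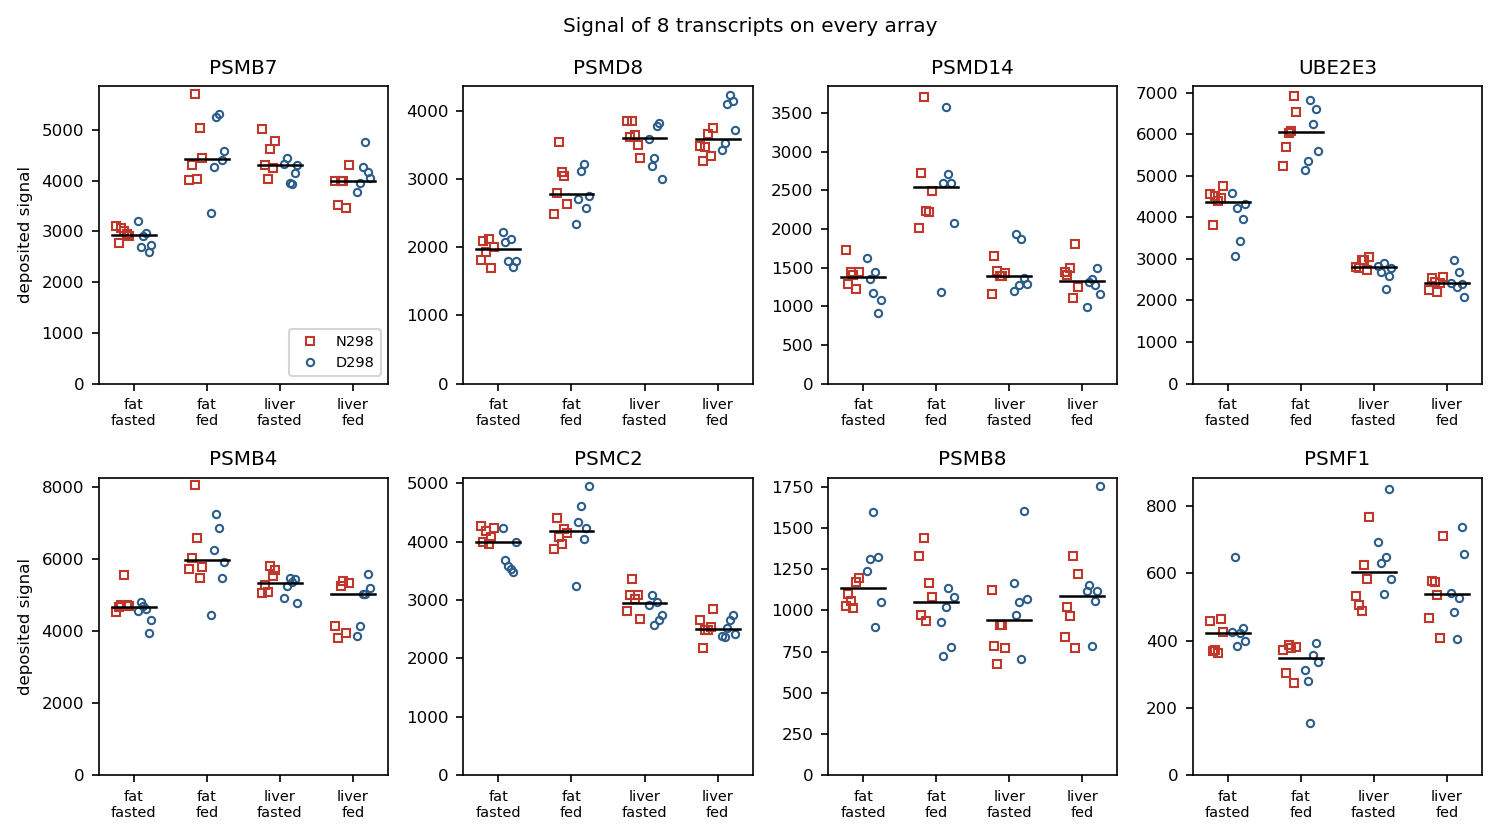
Deposited signal (linear scale, no unit) of 8 members on each of the 48 arrays, with N298 gilts as squares, D298 gilts as circles and black lines at the median of the 12 arrays of a tissue and feeding state. For PSMB7, PSMD8 and UBE2E3 every fasted fat array lies below every fed fat array, while the liver groups overlap in all 8 panels.

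Groups that do not overlap at all are rare in these data: 3 of the 64 members (4.69%), PSMB7, PSMD8 and UBE2E3, had every fasted fat array on one side of every fed fat array, against 3.15% of all genes. In liver 0 members did, against 0.843% of all genes. The share among the members thus lay near that of all genes, unlike the share called lower.

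Markers of other cell types moved with fasting in fat too. Of the endothelial markers 6 of 10 rose, their summed signal being 16050 to 27070 in fasted and 12130 to 18350 in fed gilts. Of the fibroblast markers 4 of 7 fell, with sums of 22200 to 42670 in fasted and 32770 to 52930 in fed gilts. The adipocyte markers had 1 rise and 3 falls among 9, with sums of 66430 to 92870 in fasted and 74040 to 113300 in fed gilts. Macrophage and lymphocyte markers had 0 calls among 9 and 10 genes. The part of these shifts in the falls of the proteasome genes was not tested.

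In liver nearly all members stayed without a call. PSMC2 was the single one to pass, 1 of 64 (1.56%) higher and 0 lower, against 4.09% of all genes higher and 3.1% lower. PSMC2 had 2570 to 3367 (median 2948) in fasted and 2180 to 2855 (median 2506) in fed liver, with 7 fasted arrays above all fed ones. Its change of 0.21 ± 0.06 (SE, adjusted p = 0.0484, limma) was lost in 8 of the alternative fits, among them those without N298 fed number 3. The other probe sets of PSMC2 had 0.02 and 0.10 and were not called. At an unadjusted p under 0.05 there were 11 members (17.2%) and 23.1% of all genes.

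The small changes in liver leaned upward, with 43 of 64 positive, a median of 0.05 for the members and of 0.00 for all genes. PSMA4 had 2873 to 4579 (median 3717) in fasted and 2256 to 3703 (median 3075) in fed liver, a change of 0.26 (adjusted p = 0.113, limma). PSMD13 had 0.23 (adjusted p = 0.0943), UBE2E3 0.19 (adjusted p = 0.0837) and PSMB4 0.18 (adjusted p = 0.134), all by limma and none called. Of the 32 members that fell in fat 21 had a positive change in liver, with a median of 0.03. PSMB7 had 3929 to 5018 (median 4316) in fasted and 3465 to 4755 (median 3998) in fed liver. PSMD8 had 3013 to 3861 (median 3609) in fasted and 3267 to 4245 (median 3600) in fed liver. In both genes the fasted and fed ranges overlapped in part. PSMB4 had 4784 to 5798 (median 5330) in fasted and 3818 to 5576 (median 5033) in fed liver.

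The lowest changes in liver belonged to dim enzymes and none was called: UBE2QL1 had -0.72 ± 0.30 (SE), UBE2T -0.60 ± 0.19 (SE, adjusted p = 0.0716, limma) and UBE2C -0.45 ± 0.18 (SE, adjusted p = 0.193, limma). UBE2T had 72.7 to 171 (median 108) in fasted and 87.0 to 249 (median 201) in fed liver. UBE2C had 77.3 to 199 (median 119) in fasted and 108 to 344 (median 167) in fed liver. Of the cell division genes 1 of 17 fell in liver, with sums of 1759 to 2650 in fasted and 1800 to 7434 in fed gilts. The immunoproteasome genes of liver did not pass, with PSMB8 at -0.17, PSMB10 at 0.02, PSME1 at 0.09 and PSME2 at -0.08.

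The difference between the tissues was tested directly, as the change in fat minus the change in liver. It was called for 24 of 64 members, all 24 lower in fat (37.5%) and 0 higher, against 15.2% of all genes lower and 9.05% higher. The 24 called members comprised 10 of the 16 core subunits, 9 of the 17 genes of the 19S set, 0 of the 7 activators, inhibitors and chaperones and 5 of the 24 conjugating enzymes. At an unadjusted p under 0.05 (limma) there were 36 members lower and 1 higher, 57.8% of the members in all, against 35.7% of all genes. The largest called differences were PSMD14 (-0.98 ± 0.16, SE), UBE2C (-0.97 ± 0.31, SE), PSMB3 (-0.76 ± 0.16, SE), UBE2N (-0.76 ± 0.12, SE), PSMB7 (-0.75 ± 0.08, SE), UBE2E3 (-0.72 ± 0.09, SE) and PSMB5 (-0.71 ± 0.11, SE). PSMB7 had the smallest p (adjusted p = 8.8e-09, limma), followed by UBE2E3 (adjusted p = 3.3e-08, limma) and PSMB4 (-0.57, adjusted p = 2.8e-06, limma).

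Of these 24 members 22 were also called lower in fasted fat. The other 2 were PSMC2 (-0.29) and PSMD6 (-0.28), which were not called in fat. PSMF1, the single rise of fat, had 0.18 in liver and a difference of 0.24 that was not called (adjusted p = 0.312, limma). PSMB8 differed in the same sense by 0.33 (adjusted p = 0.179, limma). With every array centred on its median, 40 members were called lower in fat, since that scaling moved the difference of all probe sets by -0.14. Without the muscle-rich fat arrays 20 were called, and 23 without those rich in hepatocyte markers. The share of all genes is not given for these alternative fits, so their counts can be set only beside the 24 above.

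**Figure D3:**
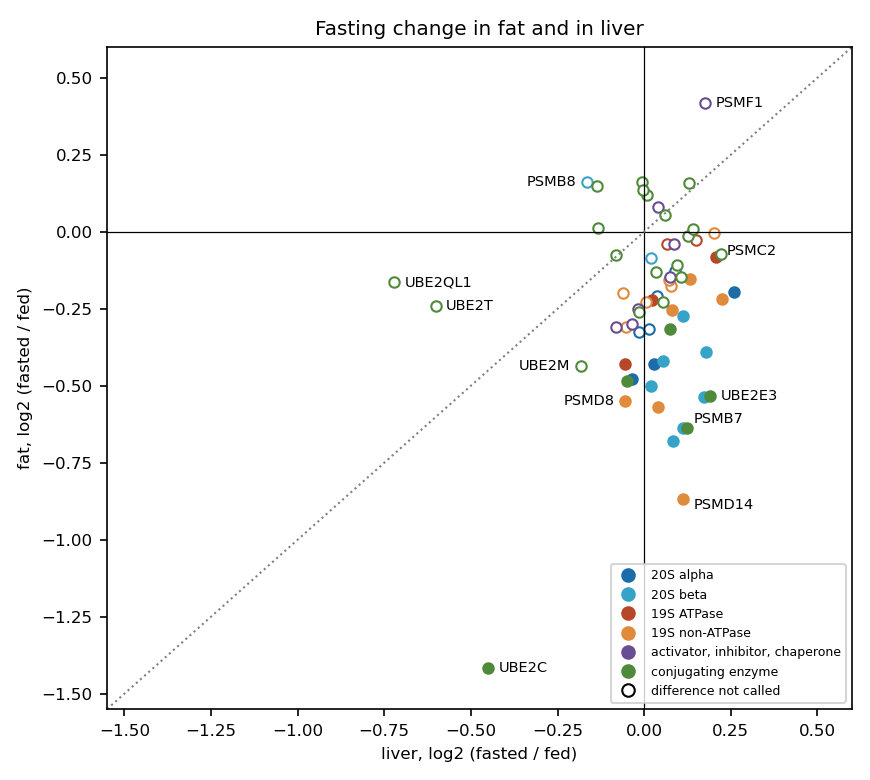
Change of each member in fat (vertical axis) against its change in liver (horizontal axis), both as log2 of fasted over fed; filled points were called for the difference between the tissues, and the dotted line marks equal change. The 24 filled points all lie below the line, with PSMD14 at -0.87 in fat and 0.11 in liver and UBE2C at -1.42 in fat and -0.45 in liver.

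Levels were compared between the tissues over all 24 arrays of each, probe set by probe set. Of the 64 members 32 were higher in fat (50%) and 20 lower (31.2%), against 46.9% and 33.6% of all genes, so the members as a whole lay near the background. The split depended on scaling. With every array centred on its median it became 12 higher and 39 lower, since the median of all probe sets, 0.26 in favour of fat as deposited, moved by -0.36. The 17 genes of the 19S set had a median difference of 0.30 and the 16 core subunits of -0.13, or -0.06 and -0.50 after centring, which moves both by the same amount. The difference between these member groups was not tested.

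All 5 ATPases were higher in fat as deposited. PSMC6 had 3445 to 6877 (median 4097) in fat and 1969 to 3055 (median 2496) in liver, a difference of 0.76 ± 0.05 (SE, adjusted p = 1.5e-17, limma) with no overlap over 48 arrays. PSMC2 had 3234 to 4963 (median 4085) in fat and 2180 to 3367 (median 2668) in liver, a difference of 0.58. These were higher in fat under centring too, while PSMC1, PSMC3 and PSMC5 turned to between -0.24 and -0.01. PSMD5, the chaperone of base assembly, had the largest difference of any member in favour of fat. It had 1896 to 3857 (median 2853) in fat and 836 to 1480 (median 1171) in liver, or 1.29 ± 0.06 (SE, adjusted p = 2.8e-22, limma). Only PSMD8 and PSMD1 among the 17 genes of the 19S set were called lower in fat. PSMD1 had -0.15 in its brighter probe set and -0.24 in the second, both called. PSMD8 was lower in fat by 0.61 on the log2 scale, with 1691 to 3551 (median 2284) in fat and 3013 to 4245 (median 3609) in liver.

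Of the 16 core subunits 8 were lower in fat and 3 higher. PSMA7 had 3171 to 7102 (median 4216) in fat and 5838 to 9044 (median 6873) in liver, a difference of -0.66 ± 0.05 (SE, adjusted p = 1.8e-16, limma). PSMB10 had 334 to 857 (median 413) in fat and 492 to 983 (median 747) in liver and stood lowest of the core at -0.79. PSMB2 (-0.55) and PSMB6 (-0.49) followed. PSME1 (-0.42), PSME2 (-0.49) and PSMF1 (-0.65) were lower in fat, and the assembly chaperones PSMG3 (0.89) and PSMG1 (0.45) and the activator PSME4 (0.49) were higher. Some of these differences depended on feeding. PSMB7 was lower in fat by 0.58 on the log2 scale in fasted gilts and higher by 0.17 in fed gilts. PSMB5 had -0.23 in fasted and 0.48 in fed gilts. The change with fasting was -0.64 in fat and 0.11 in liver for PSMB7, and -0.54 in fat and 0.17 in liver for PSMB5. After median-centring PSMB7 had -1.01 in fasted and -0.12 in fed gilts and PSMB5 -0.66 in fasted and 0.19 in fed gilts, so that the direction of PSMB7 in fed gilts depended on the scaling and neither of these fed values was called.

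Among the other 19S genes, PSMD12 (0.58), PSMD10 (0.51), PSMD14 (0.38), PSMD4 (0.32) and PSMD2 (0.30) were higher in fat, the last 2 turning just below 0 under centring. PSMD6, PSMD11 and PSMD13 were higher by 0.12 each and turned under centring to -0.24 each.

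Conjugating enzymes went both ways, 12 higher in fat and 7 lower as deposited. UBE2E3 had 3068 to 6918 (median 4951) in fat and 2080 to 3051 (median 2639) in liver, with no overlap, a difference of 0.94 ± 0.04 (SE, adjusted p = 5.7e-23, limma). UBE2R2 (0.82), a partner of cullin ligases, UBE2B (0.65), UBE2A (0.61), UBE2V1 (0.59) and UBE2M (0.58) were also higher. UBE2F had the lowest difference of any member, with 356 to 589 (median 446) in fat and 788 to 1837 (median 1070) in liver, or -1.25 ± 0.06 (SE, adjusted p = 3.6e-21, limma). So of the pair that attaches NEDD8, UBE2M was higher and UBE2F lower in fat. UBE2L3 was lower by 0.21 in its brightest probe set and higher by 0.67 in its second, so its direction is uncertain, and the same holds for UBE2D4 and UBE2D2, whose probe sets were called in opposite directions.

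**Figure D4:**
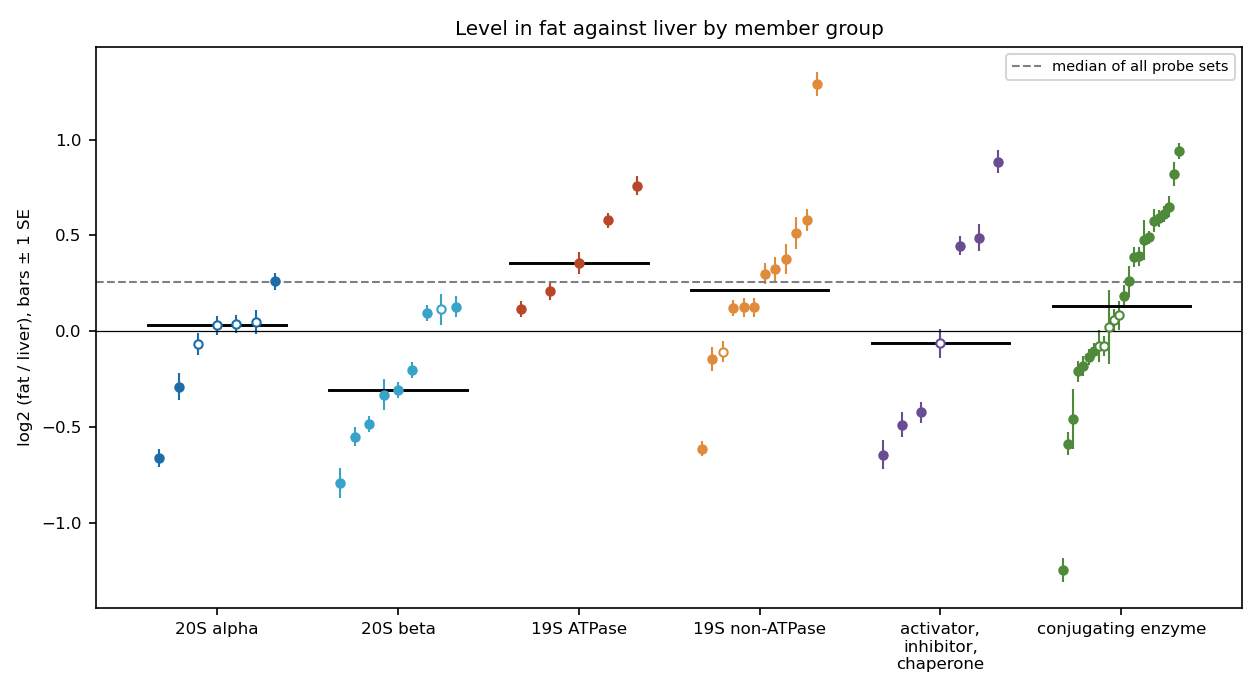
Difference in level between fat and liver for each member, as log2 of fat over liver with bars of 1 SE (24 arrays of each tissue), grouped by role; filled points were called, black lines are group medians and the dashed line is the median of all probe sets at 0.26. The ATPases lie above zero, most beta subunits below it, and the conjugating enzymes spread between -1.25 and 0.94.

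The genotypes could not be distinguished in any member. In fat and in liver 0 of 64 members and 0% of all genes were called for N298 against D298 by limma, averaged over feeding. At an unadjusted p under 0.05 there were 3 members in fat (4.69%) against 5.35% of all genes, and 1 member in liver (1.56%) against 5.07%. In fat the smallest p values belonged to PSMB1 (0.18 ± 0.06, SE), PSME1 (0.17 ± 0.07, SE), UBE2T (-0.22 ± 0.10, SE), PSMD1 (0.13 ± 0.07, SE) and PSMA7 (0.13 ± 0.07, SE). PSMB1 had 4566 to 5313 (median 5012) in N298 and 4059 to 4696 (median 4312) in D298 fasted fat, and 5177 to 7564 (median 5791) in N298 and 3927 to 6699 (median 5430) in D298 fed fat. The ranges overlapped in both feeding states, and the adjusted p was 0.829 (limma). In liver the smallest p values belonged to PSMC6 (0.14 ± 0.06, SE), UBE2L3 (-0.16 ± 0.08, SE), PSMA7 (0.14 ± 0.07, SE), UBE2E2 (0.18 ± 0.09, SE) and PSMB8 (-0.24 ± 0.13, SE), with no adjusted p of a member below 0.951 (limma).

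The response to fasting was not shown to differ between the genotypes either. For the interaction, the change in N298 minus the change in D298 gilts, 0 of 64 members and 0% of all genes were called by limma in either tissue. At an unadjusted p under 0.05 there were 4 members in fat (6.25%) against 6.73% of all genes and 3 members in liver (4.69%) against 6.62%. In fat the lowest p belonged to PSME2 (-0.53 ± 0.19, SE), PSMD4 (-0.41 ± 0.16, SE), PSMB8 (-0.45 ± 0.18, SE), UBE2R2 (0.34 ± 0.16, SE) and UBE2D4 (-0.44 ± 0.22, SE). PSME2 had 1170 to 1424 (median 1324) in fasted and 1611 to 3267 (median 1794) in fed N298 fat, groups that did not overlap. In D298 fat it had 1222 to 1875 (median 1414) in fasted and 1183 to 1966 (median 1494) in fed gilts, groups that overlapped almost whole. The adjusted p for this difference of responses was 0.814 (limma).

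PSMB8 had 1015 to 1198 (median 1077) in fasted and 937 to 1437 (median 1125) in fed N298 fat, and 898 to 1597 (median 1274) in fasted and 722 to 1133 (median 976) in fed D298 fat. Its adjusted p for the interaction was 0.837 (limma). The 9 macrophage markers in fat were all negative for fasting in N298 gilts (median -0.36) and all positive in D298 gilts (median 0.54). Their part in the values of PSME2 and PSMB8 was not tested. In liver the lowest p for the interaction belonged to UBE2C (-0.98 ± 0.36, SE), UBE2K (0.32 ± 0.14, SE), PSMB3 (-0.46 ± 0.21, SE), UBE2M (-0.40 ± 0.19, SE) and UBE2O (-0.47 ± 0.23, SE), with no adjusted p below 0.850 (limma). UBE2C had 77.3 to 148 (median 101) in fasted and 112 to 344 (median 203) in fed N298 liver, and 110 to 199 (median 126) in fasted and 108 to 189 (median 135) in fed D298 liver.

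The 4 marker genes of the set showed the genotypes side by side. In fat PSMB7 had medians of 2979 in fasted and 4383 in fed N298 gilts, and of 2819 in fasted and 4490 in fed D298 gilts. PSMD8 had medians of 1970 in fasted and 2925 in fed N298 gilts, and of 1945 in fasted and 2732 in fed D298 gilts. PSMB4 had medians of 4701 in fasted and 5895 in fed N298 gilts, and of 4588 in fasted and 6079 in fed D298 gilts. For these 3 genes the fasted medians lay below the fed medians in both genotypes. PSMC2 had medians of 4136 in fasted and 4114 in fed N298 fat, and of 3636 in fasted and 4290 in fed D298 fat.

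Other genes of ubiquitin-dependent degradation, 74 measured of a list of 135, moved in both directions in fat, with 16 higher and 21 lower. Over all genes 15.3% were higher and 18.9% lower. The median of the list, -0.04, was closer to that of all genes than the median of the members. DERL1, a channel component that takes misfolded proteins out of the endoplasmic reticulum, fell by 0.62 ± 0.07 (SE, adjusted p = 1.2e-06, limma). SIAH2, a ligase of the hypoxia response, fell by 0.78, NEDD8 by 0.39 and CDC23, a subunit of the mitotic ligase, by 0.73. On the other side COPS2, a subunit of the COP9 signalosome, rose by 0.76 ± 0.08 (SE, adjusted p = 7.3e-07, limma), the deubiquitinase USP7 by 0.51, and the ligases CBLB by 0.47 and UBE3A by 0.28. The ubiquitin genes UBB (-0.04) and RPS27A (0.01) did not pass. FBXO32, the atrophy ligase of muscle, rose by 0.95 ± 0.30 in fasted fat over all arrays (SE, adjusted p = 0.0221, limma). Without the 5 fat arrays rich in muscle markers, 4 of them from fasted gilts, it had 0.53 ± 0.35 and was not called (SE, adjusted p = 0.374, limma). Without the hepatocyte-rich arrays it had 0.92 and was not called either (adjusted p = 0.0546, limma).

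Within that list the COP9 subunits and ubiquitin-like modifiers had 7 falls and 2 rises among 13 genes, the proteasome partners 4 falls and 1 rise among 11, the ligases and adaptors 7 falls and 9 rises among 27. SEM1, the smallest subunit of the 19S lid, fell by 0.35, and VCP, the segregase that hands proteins to the proteasome, by 0.26. The 4 measured transcription factors of the list did not pass. In liver the whole list had 1 rise and 4 falls, against 4.09% of all genes higher and 3.1% lower, so its calls lay near the background. FBXO21 rose by 0.42, and UBD, a ubiquitin-like modifier induced by cytokines, fell by 0.62, FBXO31 by 0.47, TXNL1, a thioredoxin bound to the 19S lid, by 0.45 and RNF114 by 0.35. Heat shock genes, chaperones that share the care of misfolded proteins, had 5 falls and 0 rises among 12 in fat and 0 calls in liver (limma). The largest fall was that of HSPB1 (-1.29 ± 0.12, SE, adjusted p = 1.3e-07, limma), followed by HSPE1 (-0.70), DNAJA1 (-0.62), HSPD1 (-0.49) and HSP90AA1 (-0.27). Without the muscle-rich fat arrays SEM1 (-0.32), VCP (-0.18), HSP90AA1 (-0.27) and the interferon gene GBP1 (0.37) were not called.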

How the data were processed

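Per the submitters' processing notes the arrays were processed with affy and MAS5, with no version given. The values deposited by the authors are signal intensities on a linear scale, and the trimmed mean of each array, leaving out 2% at both ends, was 500.1 or 500.2, so they had been scaled. Of 24123 probe sets 124 with AFFX control IDs were left out and 23999 entered the tests, dim ones included. The number of arrays limits the precision.

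Here log2 of the deposited intensity went into limma 3.58.1 (R 4.3.3; linear model, then moderated variances with an intensity trend). Each tissue had 4 groups plus the 6 replicate numbers as blocks, because the submitters describe a block design. Fat and liver were compared over 48 arrays, and the gilt entered as a random effect (correlation 0.048). Gilts were joined by genotype, feeding and number. For 18 of 24 gilts the liver residuals matched the fat residuals of that number best. Residuals of the same number correlated by 0.020 on average in fat and by 0.0068 in liver, so the data do not show the block. Tests were 2-sided, and p-values within a tissue measure the spread between gilts. Those that compare the tissues rest on the spread between arrays, with 2 arrays from each gilt joined by the random effect. Tables were made with Python 3.11.15 and pandas 2.3.3. The fit for fasting within each tissue was run on simulated data with known changes. The comparisons of tissues and genotypes and the interaction were not simulated.

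The 64 members had 86 probe sets, and 16 members had several. Of the members 63 were found by gene ID in the RefSeq table of the pig, with the same symbol. Members, gene lists and tests were chosen with earlier results of these data known. By rule the text gives signals for the marker, immunoproteasome and mitotic members and for a set of conjugating enzymes, names further members by p within each role, and names up to 4 other pathway genes in each direction by p. Other genes were named after their values were seen. For calls of level and of tissue difference it gives differences or counts. Alternatives were the block, the scaling, a filter, an added constant, the trend, array weights and left-out arrays. Sequences were not used here.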

Additional observations from a re-analysis of the deposited data

Results flagged for a closer look

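The change with fasting differed between fat and liver, by a test of the difference itself, in 24 members, all lower in fat. On the log2 scale, fat minus liver, the values for the alpha subunits were -0.44 (PSMA3), -0.45 (PSMA4) and -0.46 (PSMA7). For the beta subunits they were -0.39 (PSMB1), -0.48 (PSMB2), -0.76 (PSMB3), -0.57 (PSMB4), -0.71 (PSMB5), -0.52 (PSMB6) and -0.75 (PSMB7). For the ATPases they were -0.37 (PSMC1), -0.29 (PSMC2) and -0.24 (PSMC5), and for the other 19S genes -0.33 (PSMD12), -0.44 (PSMD13), -0.98 (PSMD14), -0.61 (PSMD2), -0.28 (PSMD6) and -0.50 (PSMD8). For the conjugating enzymes they were -0.44 (UBE2A), -0.97 (UBE2C), -0.72 (UBE2E3), -0.39 (UBE2L3) and -0.76 (UBE2N).

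In 27 of 512 groups of 6 arrays the highest or lowest array stood far from the others. Chance flags about 1 group in 20. The fat array of N298 fed number 3 was highest for PSMA7 (7102), PSMB10 (857) and PSME2 (3267) and lowest for UBE2G2 (430). Among the other fat arrays, those of fasted gilts were PSMB4 highest in N298 number 4 (5560), PSME4 lowest (459) and PSMF1 highest (648) in D298 number 2, UBE2A lowest in N298 number 5 (1256), UBE2E3 lowest in N298 number 2 (3804) and UBE2J2 lowest in D298 number 6 (574). Those of fed gilts were PSMC5 lowest in N298 number 1 (3311), PSMD2 (2353) and UBE2A (1683) lowest in D298 number 1, PSMF1 lowest in D298 number 3 (154.0), and PSMG1 highest (902) and UBE2A lowest (1664) in N298 number 5.

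In fasted liver the arrays that stood apart were PSMB3 highest in D298 number 4 (721), PSMD5 lowest (1004), UBE2Q1 highest (4435) and UBE2V1 highest (3597) in D298 number 2, PSME3 lowest in N298 number 1 (330.1) and UBE2O lowest in D298 number 1 (242). In fed liver they were PSMA6 lowest in N298 number 2 (3454), PSMD10 highest (554) and PSME1 lowest (2199) in N298 number 5, PSMG3 lowest in N298 number 1 (180.4) and UBE2T lowest in D298 number 1 (87.0).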

How the results depend on the processing

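Of the 33 members called for fasting in fat 17 were called in every alternative, as were 16 of 24 for the difference between the tissues, 30 of 52 for the level and 0 of 1 for liver. The count in fat was 32 without the replicate block and 32 with it as a random effect, and the paired block changed no other count by over 1.5 times. It was 42 after median-centring, 23 without the 4 hepatocyte-rich fat arrays and 19 without the 5 muscle-rich ones; leaving out arrays was chosen after seeing the data, and fewer arrays also give a weaker test. In liver the count was 3 after median-centring, 2 over brighter probe sets, 0 with no trend and 0 without N298 fed number 3. Not all of these calls were PSMC2: UBE2T was called lower over brighter probe sets (-0.60, beside PSMC2) and with array weights (-0.69, in place of PSMC2), and UBE2QL1 (-0.99) in place of PSMC2 without replicate 4. The difference between the tissues was called for 40 members after median-centring. Leaving out 1 replicate number in turn gave 26 to 38 in fat, 0 to 1 in liver, 17 to 29 for the difference and 46 to 50 for the level. The share of all genes is not given here for these alternative counts. Genotype and interaction had 0 calls throughout. Median-centring reversed the level, fat minus liver, of PSMA1 (-0.33), PSMA2 (-0.31), PSMA3 (-0.32), PSMA6 (-0.10), PSMB4 (-0.27), PSMB5 (-0.23), PSMB8 (-0.25), PSMC1 (-0.0061), PSMC3 (-0.15), PSMC5 (-0.24), PSMD11 (-0.24), PSMD13 (-0.24), PSMD2 (-0.0596), PSMD4 (-0.0362), PSMD6 (-0.24), UBE2D4 (-0.10), UBE2G2 (-0.30), UBE2N (-0.18) and UBE2O (-0.28), all positive as deposited, because centring moved all probe sets by -0.36. Of 22 further probe sets of the members 19 kept the sign of the brightest for fasting in fat and 13 for fasting in liver, and 0 were called against it. For the level UBE2D2, UBE2D4 and UBE2L3 had probe sets called in opposite directions. Dim members such as UBE2C and UBE2QL1 had the largest errors.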
